A study of Mus musculus with 20 samples.

Results

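The genes described here encode neuronal voltage-gated sodium channel and HCN channel subunits. They are the pore-forming alpha subunits Scn1a, Scn3a and Scn8a, the beta subunits Scn2b and Scn3b, and the HCN subunits Hcn2, Hcn3 and Hcn4. They were chosen by gene symbol, and 8 of 8 were listed in both deposited count tables, out of 17148 genes that the tables share. RNA was sequenced from hippocampus and frontal cortex of Ncs1-/- mice and of wild-type (Ncs1+/+) mice, with mice of either genotype on the C57Bl6/J background. Neuronal calcium sensor 1, the product of Ncs1, binds calcium inside neurons. There were 20 libraries, 5 in each of these groups: Ncs1-/- hippocampus, wild-type hippocampus, Ncs1-/- frontal cortex and wild-type frontal cortex. The sources used here do not give age, sex or how the Ncs1 allele was made. Nor do the labels say whether each library was made from its own animal. The p-values then reflect only a spread between samples that may be technical.

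Voltage-gated sodium channels open on depolarization and carry the rising phase of the action potential. Each has 1 alpha subunit that forms the pore and beta subunits that tune gating and anchor the channel at the cell surface, and in neurons the channels are concentrated at the axon initial segment and the nodes of Ranvier. HCN channels open on hyperpolarization, pass an inward cation current that cyclic AMP can increase, and set resting potential, dendritic integration and rhythmic firing. Scn1a is best known as the sodium channel of fast-spiking interneurons, and Hcn4 as the pacemaker channel of the heart and of thalamic neurons.

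Total counts ranged from 16.6 M to 34.6 M per library. Levels are in CPM, counts scaled to a common library total, after TMM scaling of the 20 libraries together. Ncs1 averaged 300.3 ± 21.2 CPM in Ncs1-/- hippocampus and 441 ± 17.3 CPM in wild-type hippocampus (SD, n = 5 each). In frontal cortex it averaged 259 ± 3.68 CPM in Ncs1-/- and 368 ± 17.4 CPM in wild type (SD, n = 5 each), and the genotypes did not overlap in either region. Each hippocampus library carries one lane mark in its description and each cortex library another, so region and sequencing lane cannot be told apart. Markers of dentate granule and CA pyramidal neurons summed to 555 to 659 CPM in Ncs1-/- hippocampus and 449 to 717 CPM in wild-type hippocampus, against 141 to 157 CPM in Ncs1-/- cortex and 116 to 181 CPM in wild-type cortex. Of these 8 markers, 7 were higher in hippocampus in each genotype. Bulk RNA cannot tell fewer cells of a type from less RNA per cell.

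In the mm10 coordinates of the deposited tables, the alpha subunit genes span chr2:66270782-66440837 on the minus strand (Scn1a), chr2:65457118-65567492 on the minus strand (Scn3a) and chr15:100870645-101045938 on the plus strand (Scn8a). The beta subunit genes lie on the plus strand of chromosome 9, Scn2b at chr9:45117876-45130070 and Scn3b at chr9:40269216-40291618. The HCN genes are Hcn2 at chr10:79716634-79736108 on the plus strand, Hcn3 at chr3:89146775-89160157 on the minus strand and Hcn4 at chr9:58822949-58863174 on the plus strand.

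The promoters of Scn1a and Hcn4 are shown because these 2 members were the lowest in hippocampus relative to cortex. The 250 bases before the RefSeq start are given 5′ to 3′ on the gene's strand (GRCm38.p6). Capitals mark a GC box, searched as GGGCGG on both strands, which stands as CCGCCC on the strand shown.
Scn1a, minus strand, chr2:66440838-66441087: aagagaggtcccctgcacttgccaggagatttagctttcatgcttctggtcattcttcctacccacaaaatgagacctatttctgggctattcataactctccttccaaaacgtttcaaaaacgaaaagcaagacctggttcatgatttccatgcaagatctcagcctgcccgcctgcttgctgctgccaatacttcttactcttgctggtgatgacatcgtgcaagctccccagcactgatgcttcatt
Hcn4, plus strand, chr9:58822699-58822948: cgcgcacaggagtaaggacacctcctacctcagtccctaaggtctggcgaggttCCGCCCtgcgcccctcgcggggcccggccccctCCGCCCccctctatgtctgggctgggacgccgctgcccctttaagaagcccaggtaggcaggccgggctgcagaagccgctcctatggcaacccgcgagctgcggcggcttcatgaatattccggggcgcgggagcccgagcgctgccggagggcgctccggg
The windows differed in base composition. The Scn1a window had 46.8% GC and 4 CpG dinucleotides with 0 GC boxes, whereas the Hcn4 window had 71.2% GC, 25 CpG and 2 GC boxes. Across 32851 promoter windows of the same length the median GC content was 52.4%, and 32.7% held a GC box. Promoter windows were matched for 5 of 8 members. None of these held TTCAGCACC or GGACAGC, the conserved parts of the RE1 motif, TGACGTCA, the cyclic AMP response element, or TATAAA, the TATA box. Of all windows, 0.301%, 5.28%, 1.55% and 12.4% held these motifs in that order. The lack of a match says only that those letters are not in these windows.

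Per kilobase of exon, Scn2b was the most abundant member in each of the 4 groups and Hcn4 the least. Scn2b averaged 77.4 CPM per kb in Ncs1-/- hippocampus, 79.3 in wild-type hippocampus, 84.2 in Ncs1-/- cortex and 87.0 in wild-type cortex. In hippocampus Scn3b came next, at 61.1 CPM per kb in Ncs1-/- and 64.0 in wild type. It was followed by Scn8a and Hcn2, whose libraries overlapped, at 35.1 and 31.3 CPM per kb in Ncs1-/- and 33.6 and 34.2 in wild type. Below them stood Scn1a, Scn3a, Hcn3 and Hcn4, each with no overlap with its neighbour. In cortex the second place was held by Hcn2, at 40.8 CPM per kb in Ncs1-/- and 43.1 in wild type. It overlapped Scn8a in Ncs1-/- and not in wild type. Scn3b, at 26.6 CPM per kb in each genotype, overlapped Scn1a, at 25.3 in Ncs1-/- and 23.6 in wild type. Scn3a, Hcn3 and Hcn4 followed in the same order as in hippocampus, with no overlap between neighbours. Hcn4 averaged 0.432 CPM per kb in Ncs1-/- hippocampus, 0.412 in wild-type hippocampus, 1.43 in Ncs1-/- cortex and 1.35 in wild-type cortex.

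**Figure D1:**
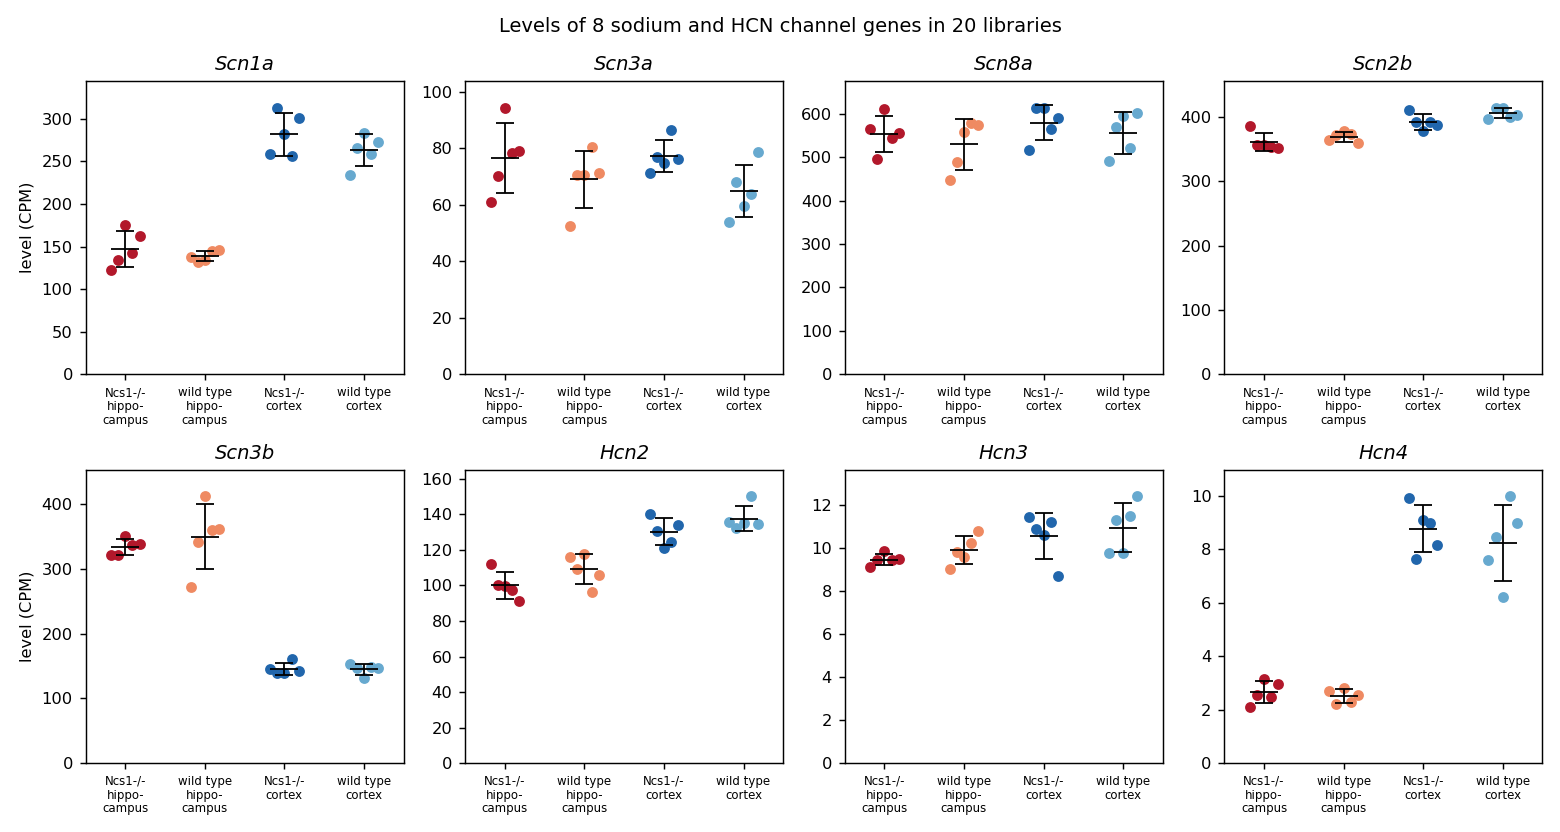
Level of each member (CPM, y axis from 0) in the 20 libraries, with the 4 groups on the x axis; points are libraries, and bars are the mean and SD of 5. Scn1a and Hcn4 sit lower in hippocampus than in cortex and Scn3b higher, with no overlap in either genotype, and the genotypes overlap within each region for all 8 genes.

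The comparison of regions showed which channel genes differ between hippocampus and frontal cortex within a genotype. Scn3b was higher in hippocampus, by 2.29-fold in Ncs1-/- and 2.38-fold in wild type. Hcn4, Scn1a, Hcn2 and Scn2b were lower, with Hcn4 in hippocampus at 0.30 times its cortical level in each genotype, and Scn1a at 0.52 times in each. Scn3a, Scn8a and Hcn3 did not pass. By edgeR's quasi-likelihood test with Benjamini-Hochberg adjustment over all genes at 0.05, 5 of 8 members passed in Ncs1-/-, where 38.8% of all genes passed, and 5 of 8 in wild type, where 39.5% did. In each genotype 1 member was higher (19.2% of all genes in Ncs1-/- and 18.8% in wild type) and 4 were lower (19.6% in Ncs1-/- and 20.7% in wild type). The regions did not overlap for 4 of 8 members in Ncs1-/-, against 29.8% of all genes, and for 5 of 8 in wild type, against 29.5%. The 2 comparisons share no library.

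Scn1a, an alpha subunit, had 123, 134, 175, 143 and 162 CPM in Ncs1-/- hippocampus, against 258, 313, 282, 256 and 301 CPM in Ncs1-/- cortex. In wild type it had 138, 132, 134, 145 and 146 CPM in hippocampus, against 234, 266, 283, 259 and 273 CPM in cortex. Every hippocampus library lay below every cortex library. The log2 difference between hippocampus and cortex was -0.94 ± 0.09 (SE) in Ncs1-/- (edgeR adjusted p = 2.67e-06) and -0.94 ± 0.06 in wild type (edgeR adjusted p = 4.74e-08). Markers of interneurons, the cells with which Scn1a is most associated, summed to 1062 to 1195 CPM in Ncs1-/- hippocampus and 1086 to 1196 CPM in wild-type hippocampus, against 1329 to 1429 CPM in Ncs1-/- cortex and 1282 to 1544 CPM in wild-type cortex. In each genotype 6 of 9 of these markers were lower in hippocampus. Among them was Pvalb, the calcium buffer of fast-spiking interneurons, with a log2 difference of -0.68 in Ncs1-/- and -0.63 in wild type. The largest terms of the sum were Gad1 and Gad2. In hippocampus and cortex, Gad1 averaged 350 and 403 CPM in Ncs1-/-, and 353 and 408 CPM in wild type. Gad2 averaged 231 and 338 CPM in Ncs1-/-, and 223 and 318 CPM in wild type. Bulk RNA does not show which cells these counts came from. Markers of striatal projection neurons, given with Hcn4 below, were also lower in hippocampus. Sst, Lhx6 and Kcnc2 differed little. In hippocampus and cortex, Sst averaged 89.5 and 83.5 CPM in Ncs1-/-, and 99.6 and 93.1 CPM in wild type. In the same order Lhx6 averaged 21.7 and 23.2 CPM in Ncs1-/-, and 23.3 and 24.2 CPM in wild type. Kcnc2 averaged 144 and 142 CPM in Ncs1-/-, and 144 and 145 CPM in wild type. The part of interneurons in the difference of Scn1a was not tested.

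The other alpha subunits among the members, Scn8a and Scn3a, showed no such difference. Scn8a, the principal sodium channel of the mature axon initial segment and nodes, averaged 554 ± 41.6 CPM in Ncs1-/- hippocampus and 580 ± 40.4 CPM in Ncs1-/- cortex (SD, n = 5 each). In wild type it averaged 529 ± 58.2 CPM in hippocampus and 555 ± 48.2 CPM in cortex (SD, n = 5 each). The 95% intervals of the log2 difference were -0.20 to 0.06 in Ncs1-/- and -0.26 to 0.09 in wild type. Scn3a, an alpha subunit best known from the embryonic brain, averaged 76.5 ± 12.3 CPM in Ncs1-/- hippocampus and 77.1 ± 5.65 CPM in Ncs1-/- cortex (SD, n = 5 each). In wild type the averages were 69.0 ± 10.2 CPM in hippocampus and 64.9 ± 9.30 CPM in cortex (SD, n = 5 each). The intervals were -0.23 to 0.19 in Ncs1-/- and -0.17 to 0.32 in wild type, so the regions were not told apart for these genes. With a trend over exonic length removed, the difference of Scn8a was 0.07 in Ncs1-/- and 0.03 in wild type, of opposite sign to the uncorrected values.

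Scn3b, a beta subunit that binds the alpha subunit without a covalent bond, had 322, 321, 351, 336 and 338 CPM in Ncs1-/- hippocampus, against 145, 139, 139, 161 and 142 CPM in Ncs1-/- cortex. In wild type it had 272, 342, 412, 360 and 361 CPM in hippocampus, against 153, 147, 131, 149 and 147 CPM in cortex. The lowest hippocampus library, wild-type replicate 1, still lay above the highest cortex library. The log2 difference was 1.196 ± 0.050 (SE) in Ncs1-/- (edgeR adjusted p = 8.03e-10) and 1.25 ± 0.09 in wild type (edgeR adjusted p = 1.91e-07). The 3 hippocampus libraries with the most Ttr, a choroid plexus transcript, were Ncs1-/- replicates 2 and 4 and wild-type replicate 4. Without those of the genotype compared, the log2 difference of Scn3b was 1.21 in Ncs1-/- and 1.24 in wild type.

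Scn2b, a beta subunit linked to the alpha subunit by a disulfide bond, differed far less. It had 385, 356, 356, 353 and 351 CPM in Ncs1-/- hippocampus, against 411, 391, 379, 392 and 387 CPM in Ncs1-/- cortex. In wild type it had 364, 371, 379, 373 and 359 CPM in hippocampus, against 397, 413, 414, 400 and 402 CPM in cortex. The regions overlapped in Ncs1-/-, through the highest hippocampus library, and not in wild type. The log2 difference was -0.13 ± 0.04 (SE) in Ncs1-/- (edgeR adjusted p = 0.0263) and -0.15 ± 0.03 in wild type (edgeR adjusted p = 0.00341). The call in Ncs1-/- was lost when 1 of 5 single libraries was left out, with adjusted p between 0.0517 and 0.0706 (Ncs1-/- cortex replicates 1, 2 and 4, and Ncs1-/- hippocampus replicates 4 and 5). It was also lost without the libraries with the most Ttr (adjusted p = 0.117), and when tested against a fold of 1.2 it was lost in each genotype.

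Hcn4 had 2.08, 2.56, 3.13, 2.48 and 2.95 CPM in Ncs1-/- hippocampus, against 9.94, 7.65, 9.08, 8.998 and 8.17 CPM in Ncs1-/- cortex. In wild type it had 2.71, 2.23, 2.81, 2.28 and 2.57 CPM in hippocampus, against 7.59, 8.48, 6.21, 9.98 and 8.98 CPM in cortex. Every hippocampus library was well below every cortex library. The log2 difference was -1.74 ± 0.13 (SE) in Ncs1-/- (edgeR adjusted p = 1.45e-07) and -1.72 ± 0.14 in wild type (edgeR adjusted p = 5.35e-07). Markers of striatal projection neurons summed to 172 to 224 CPM in Ncs1-/- hippocampus and 173 to 209 CPM in wild-type hippocampus, against 909 to 1642 CPM in Ncs1-/- cortex and 809 to 1391 CPM in wild-type cortex. All 9 of these markers were lower in hippocampus in each genotype, and none was at 0: Drd1, a dopamine receptor, averaged 5.22 CPM in Ncs1-/- hippocampus, 5.37 in wild-type hippocampus, 64.5 in Ncs1-/- cortex and 55.3 in wild-type cortex. Within cortex, the library with the least Hcn4 had the lowest striatal sum in each genotype, Ncs1-/- replicate 2 and wild-type replicate 3. The highest values fell in different libraries, replicate 1 for Hcn4 and replicate 4 for the striatal sum in Ncs1-/-, and replicate 4 for Hcn4 and replicate 5 for the striatal sum in wild type. Markers of thalamus and habenula, where Hcn4 is known to be abundant, summed to 88.5 to 158 CPM in Ncs1-/- hippocampus and 91.8 to 97.9 CPM in wild-type hippocampus, against 73.5 to 103 CPM in Ncs1-/- cortex and 62.3 to 98.2 CPM in wild-type cortex. The part of these cell types in the difference of Hcn4 was not tested.

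Hcn2, a widely expressed HCN subunit of forebrain and thalamus, was the most abundant of the 3 HCN members. It had 112, 100, 99.7, 97.4 and 91.4 CPM in Ncs1-/- hippocampus, against 140, 131, 121, 125 and 134 CPM in Ncs1-/- cortex. In wild type it had 116, 110, 118, 96.5 and 106 CPM in hippocampus, against 136, 132, 135, 150 and 135 CPM in cortex. All hippocampus libraries lay below all cortex libraries of their genotype. The log2 difference was -0.38 ± 0.06 (SE) in Ncs1-/- (edgeR adjusted p = 0.000133) and -0.35 ± 0.06 in wild type (edgeR adjusted p = 0.000320). Tested against a fold of 1.2, the call in wild type was lost (adjusted p = 0.115). Hcn3, an HCN subunit with weak response to cyclic AMP, ranged from 9.10 to 9.85 CPM in Ncs1-/- hippocampus and from 9.05 to 10.8 CPM in wild-type hippocampus, against 8.71 to 11.4 CPM in Ncs1-/- cortex and 9.76 to 12.4 CPM in wild-type cortex. Its log2 difference was -0.17 in Ncs1-/- (edgeR adjusted p = 0.128) and -0.16 in wild type (edgeR adjusted p = 0.164), and it passed in Ncs1-/- only without cortex replicate 5 (adjusted p = 0.0268). Hcn3 shares 711 exonic bases with Pklr on the opposite strand, and the sources used here do not give a strand setting for the counting, so its counts are uncertain to that extent. Pklr averaged at most 0.165 CPM in a group.

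**Figure D2:**
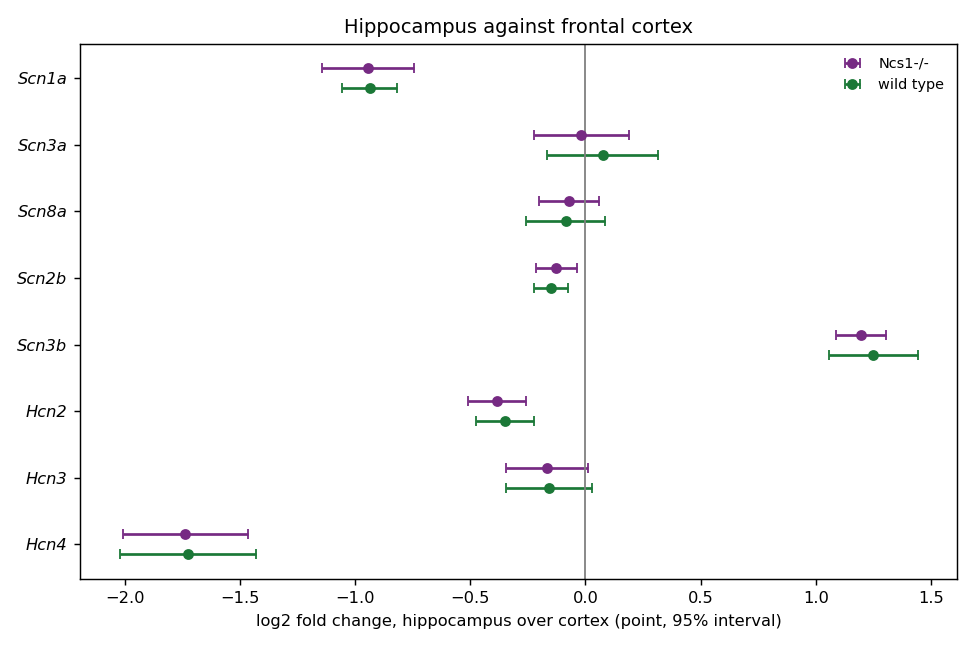
Log2 fold change of hippocampus over frontal cortex (x axis) for each member (y axis), in Ncs1-/- and wild-type libraries, 5 against 5 in each; points are edgeR estimates and bars 95% intervals. Scn3b stands at 1.196 and 1.250, Scn1a at -0.94 in each genotype and Hcn4 at -1.74 and -1.72, while the intervals of Scn3a, Scn8a and Hcn3 span 0.

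Levels per exonic kilobase were also set against their sum over the alpha subunits. The order of the subunits depends on the exonic lengths used. In CPM, Scn8a stood above Scn2a in hippocampus, at 554 and 504 CPM in Ncs1-/- and 529 and 479 CPM in wild type. In cortex it stood below, at 580 and 637 CPM in Ncs1-/- and 555 and 603 CPM in wild type. Among the alpha subunits Scn1a, Scn2a, Scn3a and Scn8a, the share of Scn1a was 14.0% in Ncs1-/- hippocampus and in wild-type hippocampus, 21.4% in Ncs1-/- cortex and 21.2% in wild-type cortex. Scn8a held 37.4% in Ncs1-/- hippocampus, 37.5% in wild-type hippocampus, 31.1% in Ncs1-/- cortex and 31.6% in wild-type cortex. Scn3a held 6.51% in Ncs1-/- hippocampus, 6.19% in wild-type hippocampus, 5.24% in Ncs1-/- cortex and 4.66% in wild-type cortex. Scn2a held the largest share, 42.1% in Ncs1-/- hippocampus, 42.2% in wild-type hippocampus, 42.3% in Ncs1-/- cortex and 42.5% in wild-type cortex. The level of Scn2a was nonetheless lower in hippocampus. Its log2 difference was -0.34 in Ncs1-/- (edgeR adjusted p = 0.000770) and -0.35 in wild type (edgeR adjusted p = 0.000559). Shares of a sum move against each other, and the level of Scn8a itself was not higher in hippocampus, with the log2 differences of -0.07 in Ncs1-/- and -0.09 in wild type given by the same fits.

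**Figure D3:**
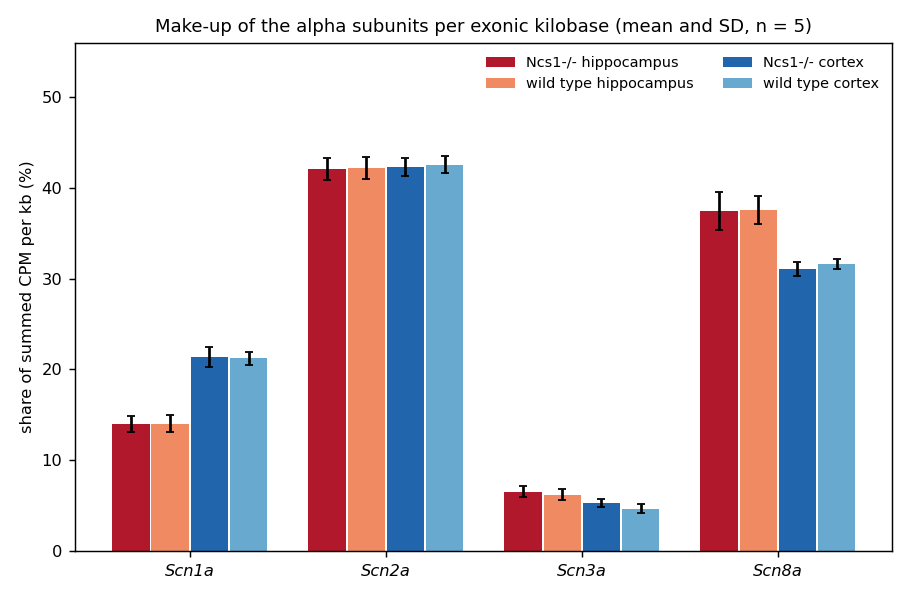
Share of the summed CPM per exonic kilobase of the alpha subunits (y axis, percent, from 0) held by each of them (x axis), as the mean with SD of 5 libraries per group. Scn1a has 14.0% in each hippocampus group, against 21.4% in Ncs1-/- cortex and 21.2% in wild-type cortex. The share of Scn2a lies between 42.1% and 42.5% in the 4 groups, although its level was lower in hippocampus.

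The genotype comparison asked whether any channel gene differed between Ncs1-/- and wild-type tissue of a region. None of the 8 members passed in hippocampus, where 0.0266% of all genes passed, and none in frontal cortex, where 0.027% did. At an unadjusted p under 0.05 the count was 0 of 8 in hippocampus, against 3.78% of all genes, and 1 of 8 in cortex, against 14.8%. The genotypes overlapped for all 8 members in each region, where 0.446% of all genes in hippocampus and 2.17% in cortex did not overlap. DESeq2 and limma-voom likewise passed 0 of 8 in either region.

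Scn3a was the cortical gene below an unadjusted p of 0.05. It had 71.2, 77.0, 74.7, 86.4 and 76.2 CPM in Ncs1-/- cortex, against 54.1, 68.2, 59.5, 63.9 and 78.6 CPM in wild-type cortex. Of the wild-type libraries, 4 lay below every Ncs1-/- library, and wild-type replicate 5 lay within the Ncs1-/- range. The log2 difference between Ncs1-/- and wild type was 0.25 ± 0.08 (SE), with a 95% interval of 0.07 to 0.43 (edgeR adjusted p = 0.243). Without wild-type cortex replicate 5 it was 0.33 and passed (edgeR adjusted p = 0.0304), in a fit that passed 563 genes in all, against 4 with every library. With the trend of the fold changes over exonic length removed it was 0.17, and with a surrogate variable it was 0.14. In hippocampus Scn3a had 61.1, 70.2, 94.4, 78.2 and 78.9 CPM in Ncs1-/-, against 52.3, 70.6, 70.5, 80.4 and 71.1 CPM in wild type. These groups overlapped widely, with a log2 difference of 0.16 and an interval of -0.11 to 0.43. Scn3a and Scn1a lie on the chromosome of Ncs1, at 34.2 and 35.0 Mb from it.

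For the remaining members the intervals limit the size of any genotype difference. Scn1a averaged 147 ± 21.1 CPM in Ncs1-/- hippocampus and 139 ± 6.28 CPM in wild-type hippocampus, with a log2 interval of -0.09 to 0.28. In cortex it averaged 282 ± 25.3 CPM in Ncs1-/- and 263 ± 18.5 CPM in wild type (SD, n = 5 each), with an interval of -0.03 to 0.23. For Scn8a the log2 difference was 0.07 in hippocampus (-0.10 to 0.25) and 0.06 in cortex (-0.07 to 0.19). With the length trend removed these were -0.01 in hippocampus and -0.05 in cortex. Scn2b had the narrowest intervals, -0.11 to 0.06 in hippocampus and -0.12 to 0.02 in cortex. Scn3b averaged 334 ± 12.4 CPM in Ncs1-/- hippocampus and 349 ± 50.3 CPM in wild-type hippocampus, and 145 ± 9.22 CPM in Ncs1-/- cortex and 145 ± 8.48 CPM in wild-type cortex (SD, n = 5 each). Its intervals were -0.25 to 0.13 in hippocampus and -0.11 to 0.11 in cortex.

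The HCN genes likewise did not pass. Hcn2 averaged 100.1 ± 7.52 CPM in Ncs1-/- hippocampus and 109 ± 8.54 CPM in wild-type hippocampus, a log2 difference of -0.12 ± 0.06 (edgeR adjusted p = 0.991). In cortex it averaged 130 ± 7.46 CPM in Ncs1-/- and 138 ± 7.13 CPM in wild type (SD, n = 5 each), a log2 difference of -0.08 with an interval of -0.18 to 0.02. Hcn3 had intervals of -0.21 to 0.09 in hippocampus and -0.25 to 0.16 in cortex. Hcn4 had the widest, -0.23 to 0.38 in hippocampus and -0.17 to 0.35 in cortex, and it was also the member with the lowest counts.

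**Figure D4:**
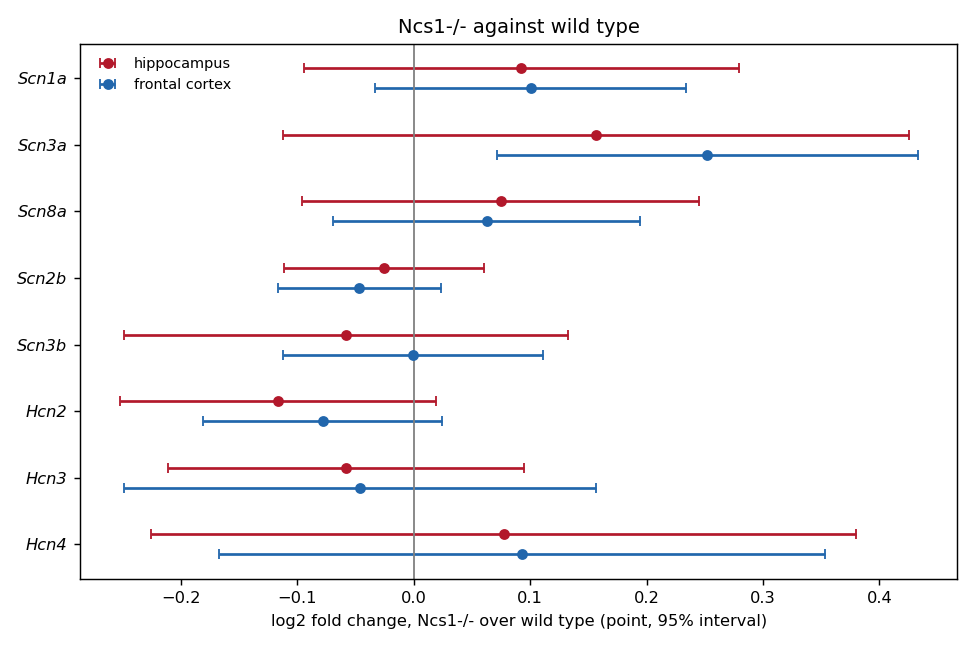
Log2 fold change of Ncs1-/- over wild type (x axis) for each member (y axis), in hippocampus and frontal cortex, 5 libraries against 5 in each; points are edgeR estimates and bars 95% intervals. Every interval spans 0 except that of Scn3a in cortex, from 0.07 to 0.43, which did not pass after adjustment over all genes.

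The interaction of genotype and region asked whether the regional differences changed with genotype. None of the 8 members passed, and 0% of 15310 genes did by edgeR. At an unadjusted p under 0.05 the count was 0 of 8 members, against 1.4% of all genes, while DESeq2 passed 1 gene in all and limma-voom 0. The interaction estimates were close to 0 beside their intervals, which ran from -0.43 to 0.23 for Scn3a, from -0.29 to 0.16 for Scn3b and from -0.41 to 0.36 for Hcn4.

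The genes around these channels gave the following counts. By edgeR, 0 of 44 genes of the 4 related lists passed between genotypes in hippocampus, 0 of 45 in cortex and 0 of 45 in the interaction. At an unadjusted p under 0.05 the counts were 0, 9 and 0 in that order, beside 3.78%, 14.8% and 1.4% of all genes, and DESeq2 passed 1 gene, in cortex, and limma-voom 0. Flna, an actin crosslinker that binds HCN channels, was among the genes with the smallest p in cortex, at a log2 difference of 0.37 (edgeR adjusted p = 0.235). In hippocampus Ank3, the ankyrin that anchors channels at the axon initial segment, was among them, at 0.12 (edgeR adjusted p = 0.991). Between regions, the counts below stand beside 19.2% of all genes higher and 19.6% lower in hippocampus in Ncs1-/-, and 18.8% higher and 20.7% lower in wild type. Of 7 other sodium and HCN channel subunits tested, 1 was higher and 4 lower in hippocampus in Ncs1-/-, and 1 was higher and 5 lower in wild type. The median log2 difference was -0.34 in Ncs1-/- and -0.35 in wild type, beside 0.01 over all genes tested in each. Scn4b, the beta subunit known for resurgent current, had a log2 difference of -3.59 in Ncs1-/- and -3.46 in wild type. Within cortex, Scn4b and the sum of striatal markers were highest in the same library, Ncs1-/- replicate 4 and wild-type replicate 5. They were lowest in the same library in Ncs1-/-, replicate 2, and in different libraries in wild type. The part of striatal cells in the difference of Scn4b was not tested. Of 12 sodium channel partners, 5 were higher and 3 lower in each genotype. The fibroblast growth factor homologues that bind the sodium channel C terminus split in 2. Fgf11 (0.76 in Ncs1-/- and 0.82 in wild type) and Fgf13 (0.67 and 0.66) were higher in hippocampus, whereas Fgf12 (-0.85 and -0.82) and Fgf14 (-0.86 and -0.78) were lower.

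Of 15 genes of the axon initial segment and node of Ranvier, 1 was higher and 6 were lower in hippocampus in each genotype. Kcna2, an axonal potassium channel, had a log2 difference of -0.71 in Ncs1-/- and -0.75 in wild type. Of 10 HCN channel partners, 2 were higher and 2 lower in Ncs1-/-, and 2 were higher and 3 lower in wild type. Pex5l, which encodes the HCN trafficking protein TRIP8b, was higher at 0.29 in Ncs1-/- and 0.26 in wild type. Among the sodium channel partners, Fyn, a tyrosine kinase, was higher in hippocampus at 0.30 in Ncs1-/- and 0.27 in wild type. Calm3, a calmodulin gene of the same list, was higher at 0.31 in Ncs1-/- and 0.26 in wild type.

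Across the 20 libraries, the gene whose log2 CPM was most like that of each member was sought among all genes tested. The libraries share their region, so a correlation over all of them includes the regional difference. It was highest with Dock3 for Scn1a (r = 0.995), Gria1 for Scn3b (r = 0.994), Gnal for Hcn4 (r = 0.985), Cdk5r2 for Hcn2 (r = 0.964), Bloc1s6 for Scn2b (r = 0.951), Ylpm1 for Scn3a (r = 0.938), D630045J12Rik for Scn8a (r = 0.868) and Shisa9 for Hcn3 (r = 0.783). Gria1 encodes an AMPA receptor subunit and Gnal the olfactory and striatal G protein alpha subunit. Scn4b and Magi1 were also at r = 0.985 with Hcn4. Many genes were nearly as alike, and those with r over 0.9 numbered 941 for Scn1a, 867 for Scn3b and 883 for Hcn4. There were 131 for Hcn2, 27 for Scn2b, 13 for Scn3a, 0 for Scn8a and 0 for Hcn3. After the 4 group means were subtracted, Dock3 was still first for Scn1a (r = 0.928) and Gria1 for Scn3b (r = 0.866). The first gene was then Ppp1r9a for Scn3a (r = 0.950), Celf2 for Scn8a (r = 0.912) and Ttll11 for Scn2b (r = 0.879). It was Gm14164 for Hcn3 (r = 0.869), Ifitm10 for Hcn2 (r = 0.853) and P2ry1 for Hcn4 (r = 0.779). Each r is the highest over all genes tested, and how high it would run for unrelated genes was not tested.

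Among the members themselves, correlations within groups were not confined to one class. After subtraction of the group means, over 20 libraries, r was 0.640 between Scn3a and Scn8a, 0.586 between Scn1a and Scn8a and 0.541 between Scn1a and Scn3a. Scn3a was as closely correlated with Scn3b (r = 0.586) and Hcn3 (r = 0.574). Scn3a and Hcn2 ran in opposite directions (r = -0.525), and Scn2b and Hcn2 together (r = 0.484). The alpha subunit genes are long, with 11.1 kb of exon for Scn1a, 12.5 kb for Scn3a and 15.8 kb for Scn8a. Hcn2 has 3.20 kb. Across genes, the log2 difference between Ncs1-/- and wild type correlated with log2 exonic length, at r = 0.191 in hippocampus and r = 0.222 in cortex. Subtraction of the group means removes that difference, so these 2 values do not describe a length trend within groups. The part of length in the correlations within groups was not tested.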

How the data were processed

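Total RNA came from flash-frozen tissue, per the labels' protocols. The deposited tables, 1 for each region, hold the authors' expected counts of each gene, with no scaling for depth. STAR 2.7.3a, Partek and mm10 are named in the submitters' processing notes, and the sources used here give no annotation, strand setting or filter. Groups came from the sample titles. After rounding, they were modelled with edgeR 4.0.16 (R 4.3.3) with filterByExpr, TMM scaling and quasi-likelihood tests. P-values were adjusted by Benjamini-Hochberg over all genes of a comparison, at 0.05. Genotypes were compared within a region's own table. Regions, and the interaction, were compared on the genes listed in both tables, which were deposited separately as unscaled counts. SEs and 95% intervals were derived from F statistics.

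The lowest chi-square per degree of freedom between libraries of a group was 3.44, so no pair was counted as 1 sample. Exonic lengths were the union of exons in the GENCODE annotation of GRCm38. Promoter sequences are from RefSeq (GRCm38.p6). Alternatives were DESeq2 1.42.0, limma-voom (limma 3.58.1), other scalings and filters, a replicate block, all 20 libraries in 1 fit, removal of the length trend (lowess, span 0.3), a surrogate variable (sva 3.50.0), glmTreat against a fold of 1.2, and leaving out libraries. The fits were also run on simulated counts that had the same spread for all genes and no length trend. That run does not show how the fits handle such features of the data. Members, gene lists and marker lists were chosen with earlier results of these data known. All members were named, with Ncs1, the 2 related genes of smallest p in each genotype comparison, up to 5 related genes per direction with the largest regional change, and the most alike gene of each member. Some of the related genes are not reported here. Scn2a, Pvalb, Drd1 and Pklr were named beside results that they bear on.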

Additional observations from a re-analysis of the deposited data

Results flagged for a closer look

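In each group of 5 the gap between the highest or lowest library and its neighbour was compared with the range of the group, over 32 combinations of member and group. In 4 of them the gap passed Dixon's critical value of 0.71, and chance alone gives about 1 such group in 20. Scn2b was highest in replicate 1 of Ncs1-/- hippocampus, at 385 CPM. Scn3b was highest in replicate 4 of Ncs1-/- cortex, at 161 CPM, and lowest in replicate 3 of wild-type cortex, at 131 CPM. Hcn2 was highest in replicate 4 of wild-type cortex, at 150 CPM.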

How the results depend on the processing

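The regional calls of Scn3b, Hcn4 and Scn1a held under every alternative run in each genotype. Of 400 member fold changes recomputed under other settings, 383 kept their direction and their side of the threshold, 5 lost their call and 12 changed sign. Against a fold of 1.2 (glmTreat), 4 members passed in Ncs1-/- and 3 in wild type, against 5 in each without that margin. Scn2b lost its call in each genotype (adjusted p = 1) and Hcn2 in wild type (adjusted p = 0.115). With 1 library left out, the members passed in cortex between genotypes numbered 0 to 1, and between regions 4 to 6 in Ncs1-/- and 5 in wild type.

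The sign changes were of values near 0 that passed no test, and the cause was not tested. For Ncs1-/- minus wild type in cortex, Scn3b was 0.00274 with total-count scaling, 0.00125 with a filter of 1 CPM in 5 libraries, 0.00110 with limma-voom and 0.00778 with the surrogate variable. Scn8a was -0.0493 with the length trend removed and -0.0335 with the surrogate variable in cortex, and -0.0104 with the length trend removed in hippocampus. For hippocampus minus cortex with the length trend removed, Scn8a was 0.0682 in Ncs1-/- and 0.0285 in wild type, and Scn3a was 0.0817 in Ncs1-/-. Scn3a in Ncs1-/- was 0.00957 with total-count scaling and 0.00982 without the Ncs1-/- hippocampus libraries with the most Ttr, replicates 2 and 4. With 1 library left out, these changed sign: between genotypes in cortex, Hcn3 (-0.0881 to 0.0137), Hcn4 (-0.000573 to 0.173) and Scn3b (-0.0419 to 0.0184); in hippocampus, Scn3b (-0.137 to 0.00483); between regions in Ncs1-/-, Scn3a (-0.103 to 0.0646). For the interaction the ranges were -0.0786 to 0.0332 for Hcn3, -0.101 to 0.0786 for Hcn4, -0.0847 to 0.0437 for Scn1a, -0.0112 to 0.0424 for Scn2b, -0.141 to 0.00130 for Scn3b and -0.0487 to 0.0468 for Scn8a.

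Scn2b in Ncs1-/- was at an adjusted p of 0.0550 between regions with total-count scaling. Over all genes, cortex had 4 genotype calls by edgeR, 169 by DESeq2, 7 with all 20 libraries in 1 fit and 563 without wild-type replicate 5. Hippocampus had 4, and 0 without the 3 libraries with the most Ttr. Among related genes, cortex had 1 call by DESeq2 and 3 without wild-type replicate 5. Against a fold of 1.2, related genes passed between regions numbered 7 in each genotype, against 24 in Ncs1-/- and 26 in wild type, and all genes 2678 in Ncs1-/- and 2608 in wild type, against 5838 and 5861. The labels do not say what a replicate number marks. Deviations of same-numbered libraries correlated at 0.0846 to 0.372 between wild-type regions and -0.143 to 0.186 between Ncs1-/- regions. In wild type 5 of 5 libraries correlated best with their own number in the other region, and in Ncs1-/- 3 of 5, a hint from the data and not from the design. With the replicate block, 5 members passed between regions in each genotype and 0 in the other comparisons.

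Depth limits Hcn4 most, which had 46 to 103 counts per hippocampus library.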
